A study of Mus musculus with 18 samples.

Results

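The Fc receptor genes of the mouse spinal cord were followed through 6 groups: the activating Fc gamma receptors Fcgr1, Fcgr3 and Fcgr4, their shared signalling chain Fcer1g, the inhibitory receptor Fcgr2b, the neonatal receptor Fcgrt and the Fc receptor-like gene Fcrls. These 7 genes were taken by name from 18182 names of a single gene in the deposited tables, with the row of the highest mean level where a name had several rows. RNA came from dorsal spinal tissue of C57BL/6 mice aged 3 months. The mice had received a recombinant adeno-associated virus (rAAV) in the spinal cord for LacZ (the control protein beta-galactosidase), for HDAC4 wt (wild-type histone deacetylase 4) or for HDAC4 3SA, a mutant of HDAC4 that is held in the nucleus. Complete Freund's adjuvant (CFA), which causes a lasting inflammation, or saline was then injected into the hindpaw 24 h before tissue was taken, which gave the groups LacZ saline, LacZ CFA, HDAC4 wt saline, HDAC4 wt CFA, HDAC4 3SA saline and HDAC4 3SA CFA. Each group held 3 mice, 18 in all, and all had a virus injected, so no group shows the untouched cord. LacZ was driven by a CMV promoter and both HDAC4 proteins by the neuronal synapsin promoter, so transgene and promoter cannot be told apart when an HDAC4 vector is set against LacZ.

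The tables give 1 FPKM value per group (read fragments scaled to exon length and to the mapped total), pooled over its 3 mice. Neither single mice nor reads or depths are given, so the spread between mice is unknown and no test can be made from these values. The results of the authors' own tests of CFA against saline, which the tables also hold, were not used, and every difference below is a description of group values. A gene is called higher or lower where log2(FPKM + 0.1) differed by at least 0.5, about 1.41-fold, and the mean of both groups was at least 0.5 FPKM. Each vector was normalized in a run of its own, so a level set across vectors is less secure than one set across CFA and saline within a vector. Over the genes above 5 FPKM the median log2 difference lay between -0.00 and 0.02 in all 7 comparisons. Hdac4 itself, on chromosome 1, read 7.41 and 7.72 FPKM in LacZ saline and CFA mice, 10.1 and 10.8 with HDAC4 wt, and 8.86 and 8.81 with HDAC4 3SA, so the groups of both HDAC4 vectors lay above both LacZ groups. Each of these differences was under the 0.5 at which a gene is called.

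Fc receptors bind the constant (Fc) part of antibodies. The activating Fc gamma receptors hold IgG at the cell surface and signal through Fcer1g, whose tail carries an ITAM that recruits Src family kinases and Syk, and the outcome is uptake of the coated particle and release of mediators. Fcgr2b binds IgG complexes too, but its tail carries an ITIM that recruits the phosphatase SHIP1 (Inpp5d) and dampens that signal, so the balance of both kinds sets how strongly a cell answers to IgG. The neonatal receptor Fcgrt, paired with beta-2 microglobulin (B2m), works inside cells, where it rescues IgG and albumin from breakdown, and is found in endothelium as well as in myeloid cells. Fcrls is a relative of the Fc receptors that marks microglia in the mouse brain. In the healthy cord the activating and inhibitory receptors are mainly genes of microglia and of other macrophages.

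The genes Fcgr2b, Fcgr4, Fcgr3 and Fcer1g lie near one another on chromosome 1 in the tables (GRCm38). Fcgr2b is at chr1:170958554-170976191, Fcgr4 at chr1:171018919-171029791, Fcgr3 at chr1:171051078-171059662 and Fcer1g at chr1:171229491-171234496. Fcgr1 is at chr3:96282896-96294005, Fcrls at chr3:87249000-87263720 and Fcgrt at chr7:45092989-45103850. The places cover whole genes, exons and introns included. Fcgr4 is on the plus strand and the other 6 are on the minus strand.

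Sequence near the start sites is shown for the activating receptors, which differed together between vectors, and for Fcgr2b and Fcgrt as the inhibitory and neonatal counterparts. RefSeq (GRCm38.p6) gave a window of 300 bases, from 250 before to 50 after the start site, for 7 of the 7 genes. Capitals mark matches, on either strand, to the PU.1 letters GAGGAA, the interferon gamma activated site (GAS) TTCNNNGAA, and the IRF core GAAANNGA. The windows are chr3:96293920-96294219 (Fcgr1, minus strand), chr1:171059354-171059653 (Fcgr3, minus strand, the window of 1 of its start sites), chr1:171018676-171018975 (Fcgr4, plus strand), chr1:170976022-170976321 (Fcgr2b, minus strand) and chr7:45103773-45104072 (Fcgrt, minus strand).
Fcgr1: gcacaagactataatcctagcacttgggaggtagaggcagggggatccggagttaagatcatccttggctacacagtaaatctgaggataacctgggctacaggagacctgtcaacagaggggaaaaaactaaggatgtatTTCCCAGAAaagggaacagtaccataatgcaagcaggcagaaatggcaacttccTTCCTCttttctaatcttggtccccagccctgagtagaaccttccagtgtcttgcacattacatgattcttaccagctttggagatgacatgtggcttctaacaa
Fcgr3: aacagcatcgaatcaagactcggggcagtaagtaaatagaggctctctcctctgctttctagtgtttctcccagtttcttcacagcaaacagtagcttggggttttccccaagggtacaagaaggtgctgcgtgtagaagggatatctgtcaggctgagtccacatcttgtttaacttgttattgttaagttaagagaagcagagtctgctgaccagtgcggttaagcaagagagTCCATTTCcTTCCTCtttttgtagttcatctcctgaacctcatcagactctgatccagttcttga
Fcgr4: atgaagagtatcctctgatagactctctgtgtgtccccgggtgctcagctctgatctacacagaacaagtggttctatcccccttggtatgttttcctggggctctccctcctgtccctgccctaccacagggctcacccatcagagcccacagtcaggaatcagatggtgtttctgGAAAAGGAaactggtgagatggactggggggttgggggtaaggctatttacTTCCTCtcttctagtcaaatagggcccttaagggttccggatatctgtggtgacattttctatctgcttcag
Fcgr2b: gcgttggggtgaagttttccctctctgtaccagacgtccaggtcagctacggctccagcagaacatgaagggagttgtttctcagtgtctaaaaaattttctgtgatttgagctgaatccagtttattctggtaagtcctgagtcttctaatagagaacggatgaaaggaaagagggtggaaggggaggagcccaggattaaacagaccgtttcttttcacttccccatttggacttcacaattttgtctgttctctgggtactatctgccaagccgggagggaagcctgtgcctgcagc
Fcgrt: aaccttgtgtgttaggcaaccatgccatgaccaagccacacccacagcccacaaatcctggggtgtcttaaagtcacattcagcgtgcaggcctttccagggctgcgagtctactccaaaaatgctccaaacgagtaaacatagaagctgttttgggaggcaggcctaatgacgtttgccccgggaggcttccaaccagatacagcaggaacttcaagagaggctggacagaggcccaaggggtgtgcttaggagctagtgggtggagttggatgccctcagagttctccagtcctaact

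All 3 activating receptors hold GAGGAA, read from the opposite strand as TTCCTC, within 55 bases before the start site: its first base is at -55 in Fcgr1, -6 in Fcgr3 and -22 in Fcgr4. Fcrls has GAGGAA at -144, whereas the windows of Fcer1g, Fcgr2b and Fcgrt hold none of the 3 motifs. GAGGAA occurs in 28.3% of 32851 promoter windows of the same length. The GAS letters occur in Fcgr1, at -109, and in 8.30% of all windows. The IRF core occurs in Fcgr3, at -15, where 1 base separates it from the PU.1 letters, and in Fcgr4, at -73, against 21.0% of all windows. These are matches of letters, and nothing about binding was measured.

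Reads of 50 bases cannot always tell the receptors apart, which bears on the values of a pair of them. Of the 1298 windows of 50 bases in the Fcgr3 transcript, 166 (12.8%) also occur in Fcgr2b, all of them in coding sequence. The same 166 are 4.75% of the 3495 windows of Fcgr2b, of which 397 (11.4%) occur in some other gene. The longest identical stretch has 129 bases, from base 313 to 441 of the Fcgr3 transcript and from 402 to 530 of the Fcgr2b transcript, and is shown because reads from it fit both genes.
Fcgr3 and Fcgr2b: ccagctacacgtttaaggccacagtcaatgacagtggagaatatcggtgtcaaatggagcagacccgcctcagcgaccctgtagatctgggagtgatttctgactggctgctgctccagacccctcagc
The transcripts of Fcgr1, Fcgr4, Fcer1g, Fcgrt and Fcrls shared no window of 50 bases with another gene. How the authors' counting split shared reads between Fcgr3 and Fcgr2b was not tested.

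Fcgr1 has a pair of rows in the tables with the same place, and they differ in level and in pattern. The row with the higher mean, which the selection takes, read 8.84 FPKM in LacZ saline mice and was listed at 0 in LacZ CFA mice, then 27.4 and 84.5 in HDAC4 wt saline and CFA mice, and 54.3 and 50.7 in HDAC4 3SA saline and CFA mice. Its identifier lies among those of plus-strand genes (38 of 40 neighbours), although Fcgr1 is on the minus strand and GENCODE M21 has 0 genes on the plus strand over this place. The other row read 1.31 and 1.61 FPKM in LacZ saline and CFA mice, 9.75 and 11.9 with HDAC4 wt, and 6.94 and 14.9 with HDAC4 3SA, and its identifier lies among those of minus-strand genes (39 of 40 neighbours). The libraries were strand-specific. Values of Fcgr1 below are those of this row, the strand-matched row, unless the higher row is named, and this choice was made after both had been seen.

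**Figure D1:**
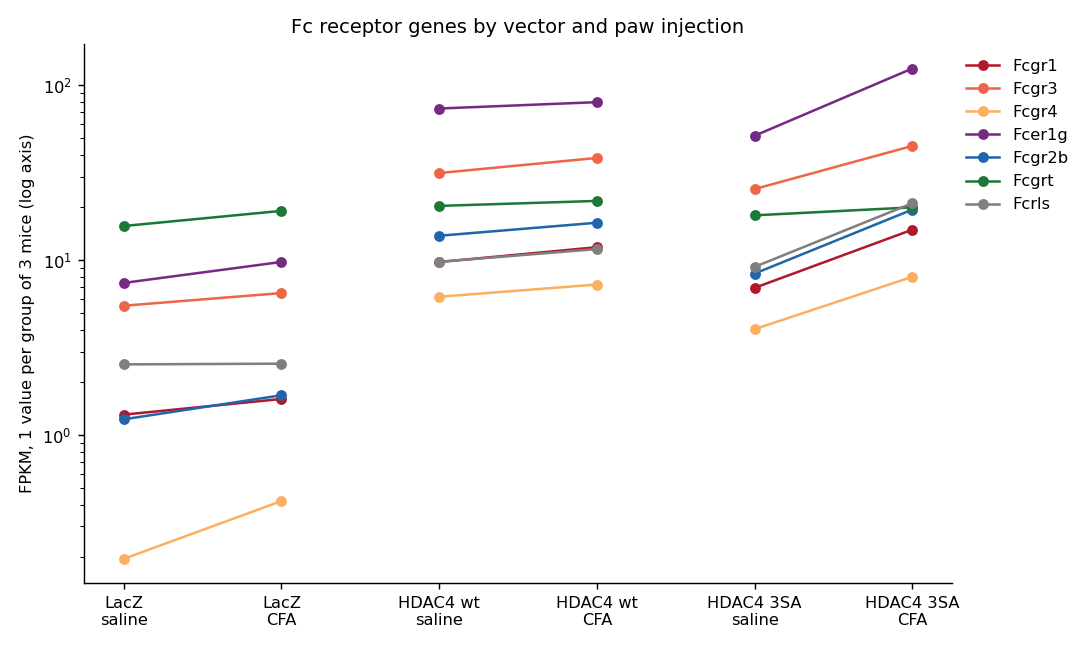
FPKM on a log axis for the 7 Fc receptor genes, with 1 point per group of 3 mice and a line joining saline and CFA within a vector (Fcgr1 from the strand-matched row). Fcgrt leads in both LacZ groups at 15.7 and 19.1 FPKM and stays between 15.7 and 21.8 throughout, whereas Fcer1g leads in the 4 HDAC4 vector groups at 51.4 to 124.6 FPKM.

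The 3 activating receptors were low in LacZ mice and several-fold higher in mice with either HDAC4 vector. Fcgr3, the low-affinity activating receptor and the most abundant of the 3, read 5.48 and 6.48 FPKM in LacZ saline and CFA mice, 31.5 and 38.4 with HDAC4 wt, and 25.5 and 45.0 with HDAC4 3SA. The lowest HDAC4 vector group was thus well above the higher LacZ group. Against LacZ, Fcgr3 was 5.74-fold higher in HDAC4 wt saline mice and 5.92-fold higher in HDAC4 wt CFA mice, and 4.65-fold and 6.94-fold higher in HDAC4 3SA saline and CFA mice. Fcgr1, the high-affinity IgG receptor, was 7.46-fold and 7.38-fold higher in HDAC4 wt saline and CFA mice, and 5.31-fold and 9.29-fold higher with HDAC4 3SA. Both HDAC4 wt ratios of Fcgr1 were nearly the same with and without CFA. Fcgr4, which binds mouse IgG2 classes, was hardly present in LacZ mice at 0.196 and 0.419 FPKM in saline and CFA, and read 6.17 and 7.25 FPKM with HDAC4 wt and 4.03 and 8.03 with HDAC4 3SA. Its ratios to LacZ, 31.5-fold and 17.3-fold in HDAC4 wt saline and CFA mice and 20.6-fold and 19.2-fold in HDAC4 3SA mice, were the largest of the 7 genes in all 4 comparisons with the strand-matched Fcgr1 row, and rest on a LacZ level under 0.5 FPKM. With 1 FPKM added in place of 0.1, the log2 difference of Fcgr4 was 2.58 and 2.54 in HDAC4 wt saline and CFA mice and 2.07 and 2.67 with HDAC4 3SA, under that of Fcer1g (3.15, 2.91, 2.64 and 3.55) in each. The higher Fcgr1 row has no ratio in CFA mice because its LacZ CFA value is listed at 0.

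The signalling chain and the inhibitory receptor went the same way. Fcer1g read 7.40 and 9.76 FPKM in LacZ saline and CFA mice, 73.6 and 80.0 with HDAC4 wt, and 51.4 and 124.6 with HDAC4 3SA, which is 9.94-fold, 8.20-fold, 6.95-fold and 12.8-fold above LacZ in the matching paw groups. Fcgr2b read 1.23 and 1.69 FPKM in LacZ saline and CFA mice, 13.8 and 16.4 with HDAC4 wt, and 8.37 and 19.4 with HDAC4 3SA. The inhibitory gene was 11.2-fold and 9.69-fold above LacZ in HDAC4 wt saline and CFA mice, and 6.81-fold and 11.5-fold above it in HDAC4 3SA mice. In all 4 comparisons its ratio exceeded those of Fcgr1 and Fcgr3 and was under that of Fcgr4. The order against Fcgr4 rests on LacZ values of Fcgr4 under 0.5 FPKM, and was not kept in all of them with 1 FPKM added.

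Fcgrt and Fcrls stood apart from these, in different ways. Fcgrt read 15.7 and 19.1 FPKM in LacZ saline and CFA mice, 20.4 and 21.8 with HDAC4 wt, and 18.0 and 20.0 with HDAC4 3SA. Its log2 difference from LacZ was 0.38 and 0.19 in HDAC4 wt saline and CFA mice and 0.20 and 0.07 with HDAC4 3SA, all under 0.5. Fcrls read 2.53 and 2.56 FPKM in LacZ saline and CFA mice, 9.78 and 11.6 with HDAC4 wt, and 9.15 and 21.2 with HDAC4 3SA. It was 3.86-fold, 4.52-fold, 3.61-fold and 8.27-fold above LacZ in HDAC4 wt saline, HDAC4 wt CFA, HDAC4 3SA saline and HDAC4 3SA CFA mice. In both saline comparisons and in HDAC4 wt CFA mice, Fcrls had the smallest ratio of the 6 genes other than Fcgrt.

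Against LacZ, 6 of the 7 genes were called higher in each of the 4 comparisons and Fcgrt was the exception in each, with either Fcgr1 row. Among all genes read, the share called higher was 15.2% for HDAC4 wt against LacZ in saline mice, 15.6% for HDAC4 wt against LacZ in CFA mice, 11.7% for HDAC4 3SA against LacZ in saline mice and 16.8% for HDAC4 3SA against LacZ in CFA mice. The median log2 difference of the 7 genes was 2.81, 2.81, 2.32 and 3.14 in the same order, and 2.50, 3.02, 2.61 and 3.45 with the higher Fcgr1 row, whereas the median of all genes lay between 0.04 and 0.07. Between 0.94% and 1.21% of the genes read had a log2 difference as large as that of Fcgr4, and between 1.37% and 2.07% one as large as that of Fcer1g. For Fcgrt these shares were 20.2% to 47.3%. Both saline comparisons share the LacZ saline value and both CFA comparisons share the LacZ CFA value, so the similarity of the 2 HDAC4 vectors is not independent.

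**Figure D2:**
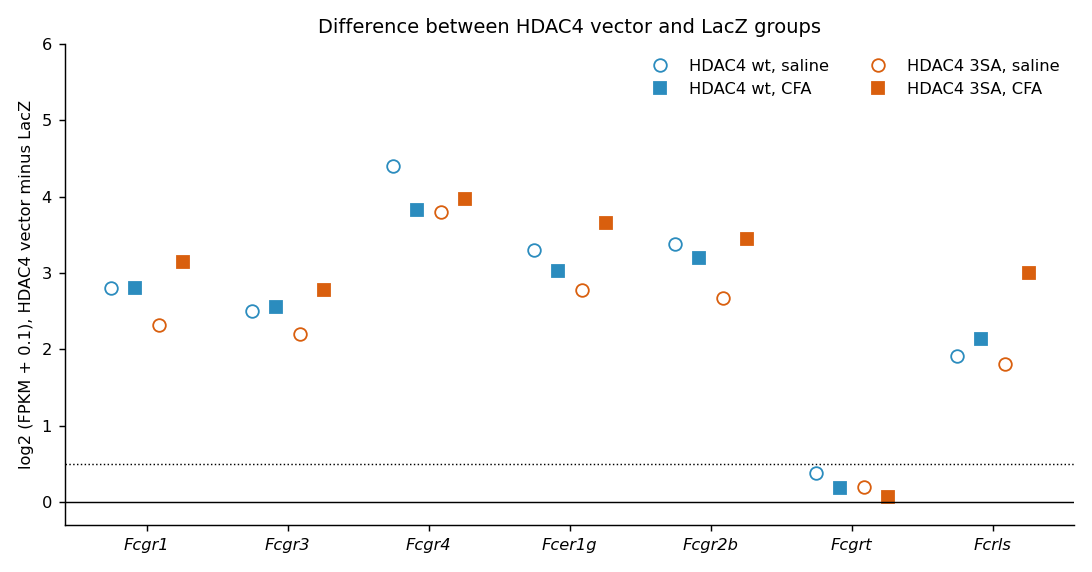
Difference in log2(FPKM + 0.1) between each HDAC4 vector and LacZ for each gene, in saline mice (open circles) and CFA mice (filled squares), with a dotted line at 0.5 and Fcgr1 from the strand-matched row. Fcgrt lies under the dotted line in the 4 comparisons, the other 6 genes lie between 1.81 and 4.41, and Fcgr4 is the highest in each with 0.1 FPKM added, though under Fcer1g with 1 FPKM added.

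The order of the levels differed between vectors. In LacZ saline mice it ran Fcgrt (15.7 FPKM), Fcer1g (7.40), Fcgr3 (5.48), Fcrls (2.53), Fcgr1 (1.31), Fcgr2b (1.23) and Fcgr4 (0.196). In HDAC4 wt saline mice it ran Fcer1g (73.6 FPKM), Fcgr3 (31.5), Fcgrt (20.4), Fcgr2b (13.8), Fcrls (9.78), Fcgr1 (9.75) and Fcgr4 (6.17). In HDAC4 3SA CFA mice Fcrls (21.2 FPKM) stood just above Fcgrt (20.0) and Fcgr2b (19.4). Without a spread over mice, it is unknown which neighbours in these orders differ. The pairs Fcgr1 and Fcgr2b in LacZ mice, Fcrls and Fcgr1 with HDAC4 wt, and Fcrls, Fcgrt and Fcgr2b in HDAC4 3SA CFA mice lay closest.

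CFA was set against saline within each vector, which asks whether paw inflammation went with a change in these genes at 24 h. In HDAC4 3SA mice, 6 of the 7 genes were higher with CFA, whereas in LacZ and HDAC4 wt mice none was called with the strand-matched Fcgr1 row. Among all genes read, the share called higher with CFA was 3.58% in LacZ mice, 4.79% with HDAC4 wt and 9.12% with HDAC4 3SA. Fcer1g had the largest difference in HDAC4 3SA mice, from 51.4 FPKM in saline to 124.6 in CFA, a ratio of 2.42. Fcgr2b followed at 2.32 and Fcrls at 2.31, then Fcgr1 at 2.15, Fcgr4 at 1.99 and Fcgr3 at 1.76. Fcgrt had a ratio of 1.11. On the log2 scale these differences were 1.28 for Fcer1g, 1.21 for Fcgr2b, 1.20 for Fcrls, 1.09 for Fcgr1, 0.98 for Fcgr4, 0.82 for Fcgr3 and 0.15 for Fcgrt. In HDAC4 3SA mice the 3 receptors that activate thus differed less than the receptor that inhibits, with no spread over mice known. With HDAC4 wt, Fcgr3 (0.29) and Fcgr1 (0.28) differed more than Fcgr2b (0.25), and Fcgr4 (0.23) less. With LacZ, Fcgr1 (0.28) and Fcgr3 (0.24) differed less than Fcgr2b (0.43), and Fcgr4 was under the minimum level.

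With HDAC4 wt, the same log2 differences between CFA and saline lay between 0.09 for Fcgrt and 0.29 for Fcgr3, and with LacZ between 0.01 for Fcrls and 0.43 for Fcgr2b among the 6 genes that reached the minimum level. Fcgr4 in LacZ mice had a log2 difference of 0.81 at 0.196 and 0.419 FPKM, a mean under the minimum of 0.5, and was not called for that reason. All 7 genes had a positive difference in each vector with the strand-matched Fcgr1 row. The log2 difference with CFA was larger in HDAC4 3SA than in LacZ mice by 1.19 for Fcrls, 0.88 for Fcer1g, 0.82 for Fcgr1, 0.78 for Fcgr2b, 0.58 for Fcgr3 and 0.16 for Fcgr4, and smaller by 0.13 for Fcgrt; whether these exceed the spread between mice was not tested. Between HDAC4 3SA and HDAC4 wt the same quantity was 1.16 for Fcer1g, 0.96 for both Fcgr2b and Fcrls, 0.81 for Fcgr1, 0.75 for Fcgr4, 0.53 for Fcgr3 and 0.06 for Fcgrt.

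The count of genes higher with CFA in LacZ, HDAC4 wt and HDAC4 3SA mice was 0, 0 and 6 with the strand-matched Fcgr1 row. With the higher row it was 0, 1 and 5, because that row had a log2 difference of 1.62 with HDAC4 wt and -0.10 with HDAC4 3SA, and it was called lower in LacZ mice, where its CFA value is listed at 0. The median log2 difference was 0.28, 0.24 and 1.09 with the strand-matched row, against 0.01, 0.00 and 0.01 for all genes. At a threshold of 1 on the log2 scale, 4 genes passed in HDAC4 3SA mice with the strand-matched row and 3 with the higher row, against 2.68% and 2.67% of all genes read.

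**Figure D3:**
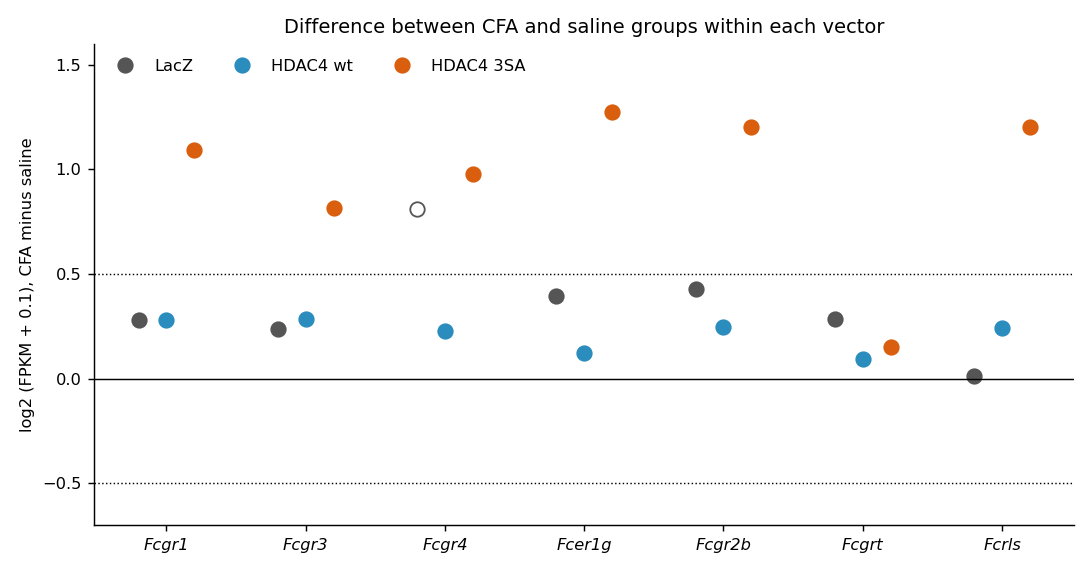
Difference in log2(FPKM + 0.1) between CFA and saline for each gene in LacZ, HDAC4 wt and HDAC4 3SA mice, with dotted lines at -0.5 and 0.5 and Fcgr1 from the strand-matched row. In HDAC4 3SA mice 6 genes lie between 0.82 and 1.28 and Fcgrt at 0.15, whereas the LacZ and HDAC4 wt points lie between 0.01 and 0.43, except the open point of Fcgr4 in LacZ mice (0.81), whose mean is under 0.5 FPKM.

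The balance of activating and inhibitory receptors was read as the summed FPKM of Fcgr1, Fcgr3 and Fcgr4 over that of Fcgr2b in the same group, a ratio in which the scaling of each table cancels. With the strand-matched Fcgr1 row it was 5.68 and 5.04 in LacZ saline and CFA mice, 3.44 and 3.51 with HDAC4 wt, and 4.35 and 3.49 with HDAC4 3SA. All 4 HDAC4 vector groups lay under both LacZ groups, although the activating sum itself went from 6.99 and 8.50 FPKM in LacZ mice to between 36.5 and 67.9 FPKM. The LacZ ratios divide by Fcgr2b at only 1.23 and 1.69 FPKM. No FPKM was added to either side, and whether the separation holds with an added value was not tested. Without Fcgr1 the ratio was 4.62, 4.09, 2.73, 2.79, 3.52 and 2.73 in the same order of groups, with the same separation. Without Fcgr3 it was 1.22, 1.20, 1.16, 1.17, 1.31 and 1.18, so the separation of LacZ from the HDAC4 vectors was not seen when Fcgr3 was left out. With the higher Fcgr1 row it was 11.8 and 4.09 in LacZ mice, 4.72 and 7.96 with HDAC4 wt, and 10.0 and 5.33 with HDAC4 3SA, and the LacZ CFA value holds nothing of Fcgr1, which is listed at 0 there. With that row LacZ saline lay above the 4 HDAC4 vector groups and LacZ CFA below them.

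The receptors behind the ratio differed among themselves. Fcgr3 over Fcgr2b was 4.46 and 3.84 in LacZ saline and CFA mice, 2.28 and 2.35 with HDAC4 wt, and 3.04 and 2.31 with HDAC4 3SA. Fcgr1 over Fcgr2b was 1.06 and 0.952 in LacZ mice and between 0.708 and 0.829 in the HDAC4 vector groups. Fcgr4 over Fcgr2b went the other way, with 0.159 and 0.248 in LacZ mice and 0.413 to 0.481 in the HDAC4 vector groups. Fcgr3 made up 78.5% and 76.2% of the activating sum in LacZ saline and CFA mice and 66.2% to 69.9% in the HDAC4 vector groups, while Fcgr4 made up 2.80% and 4.93% and then 11.1% to 13.03%. The share of Fcgr1 stayed between 18.7% and 22.0%. The ratio of Fcgr3 to Fcgr2b is limited by the sequence they share, and that of Fcgr4 to Fcgr2b by LacZ values of Fcgr4 under 0.5 FPKM.

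**Figure D4:**
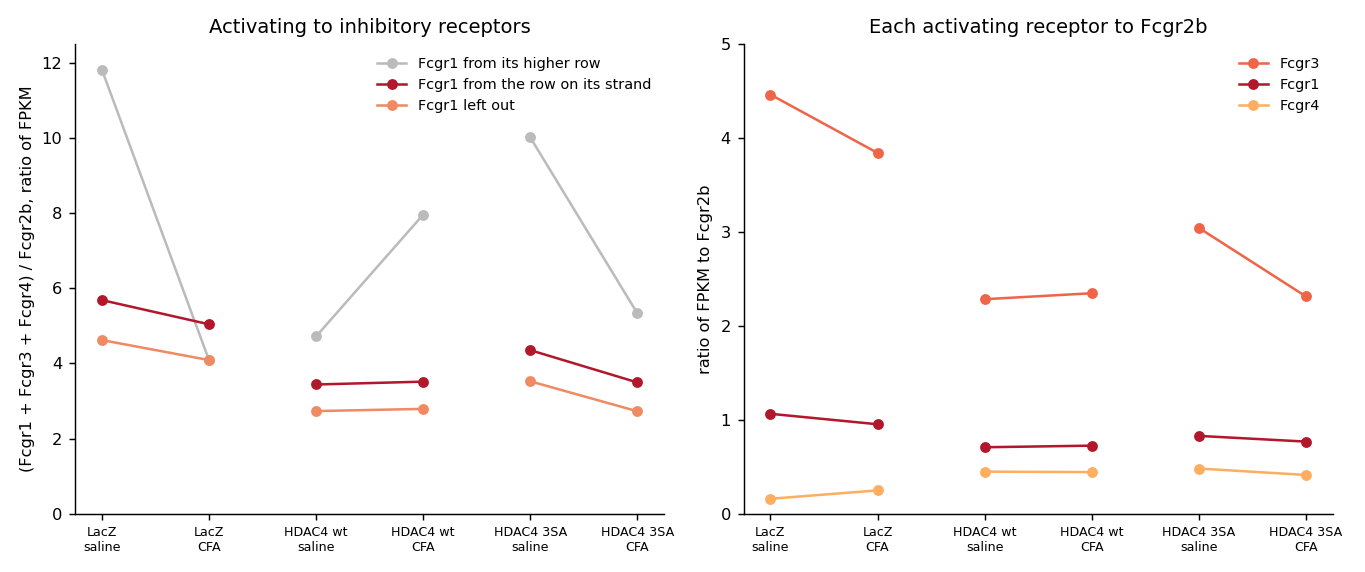
Left, the ratio of summed activating receptor FPKM to Fcgr2b FPKM by group, with Fcgr1 from its higher row, from the strand-matched row, or left out. Right, the ratio of each activating receptor to Fcgr2b: Fcgr3 and Fcgr1 are highest in the LacZ groups (4.46 and 1.06 in saline), and Fcgr4 is lowest there (0.159 in saline).

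The partner chains were read against their receptors. Fcer1g over the activating sum was 1.06 and 1.15 in LacZ saline and CFA mice, 1.55 and 1.39 with HDAC4 wt, and 1.41 and 1.83 with HDAC4 3SA. Tyrobp, the related ITAM chain of Trem2 and other receptors, kept between 1.21 and 1.44 times the FPKM of Fcer1g in the 6 groups. B2m, the light chain that Fcgrt needs and that also belongs to class I MHC, read 50.1 and 69.0 FPKM in LacZ mice, 433.1 and 560.9 with HDAC4 wt, and 305.7 and 514.2 with HDAC4 3SA. B2m over Fcgrt therefore went from 3.20 and 3.61 in LacZ mice to between 17.0 and 25.7 in the HDAC4 vector groups. The chain and the receptor of the neonatal complex were thus not higher together.

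Signalling genes downstream of the receptors were read from lists. Of 16 kinases and adaptors of the activating receptors, 14 were called higher in each of the 4 comparisons with LacZ, and Fyn and Card9 were not. Blnk, an adaptor, read 0.782 and 0.953 FPKM in LacZ saline and CFA mice and 5.45 to 11.1 FPKM in the HDAC4 vector groups, and Lat2 read 1.12 and 1.30 and then 5.16 to 10.6. Prkcd read 9.61 and 11.9 and then 19.1 to 24.2. With CFA, 2 of the 15 that reached the minimum were higher in LacZ mice, 0 of 16 with HDAC4 wt and 12 of 16 with HDAC4 3SA. Fyn, a Src family kinase of many cell types, stayed between 38.2 and 49.8 FPKM and Card9 between 7.10 and 8.46.

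On the inhibitory side the list holds 6 phosphatases and adaptors. Inpp5d (SHIP1), the phosphatase that Fcgr2b recruits, read 1.90 and 2.22 FPKM in LacZ mice, 8.81 and 11.3 with HDAC4 wt, and 7.24 and 12.4 with HDAC4 3SA. Ptpn6 (SHP-1) read 2.10 and 3.11, then 18.2 and 21.5, then 11.9 and 22.6 FPKM in the same groups. Inppl1 (SHIP2), at 9.40 to 15.1 FPKM, and Ptpn11 (SHP-2), at 48.2 to 57.5 FPKM, varied less. Against LacZ, 4 of 6 were higher in each HDAC4 wt comparison, 3 of 5 in HDAC4 3SA saline mice and 5 of 6 in HDAC4 3SA CFA mice, and with CFA 1 of 5, 0 of 6 and 4 of 6 were higher in LacZ, HDAC4 wt and HDAC4 3SA mice. Inpp5d, Ptpn6 and Dok1 were called in each comparison with LacZ and Ptpn11 in none.

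The complement and phagocytic genes that act beside Fc receptors were read from a list as well. All 6 (C1qa, C1qb, C1qc, C3, Itgam and Itgb2) were higher in each comparison with LacZ, and with CFA 0 of 6 were higher in LacZ mice, 1 of 6 with HDAC4 wt and 6 of 6 with HDAC4 3SA. C1qa, the subunit of C1q that with its partners recognizes bound antibody, read 37.5 and 49.9 FPKM in LacZ mice, 360.2 and 486.1 with HDAC4 wt, and 254.1 and 500.0 with HDAC4 3SA. Of the other Fc receptor and Fc receptor-like genes, 6 of 12 had a row of a single gene. Trim21, a cytosolic Fc receptor, read 1.26 and 1.57 FPKM in LacZ mice and 4.22 to 6.98 in the HDAC4 vector groups. Fcrla, a gene of B cells, read 0.0490 and 0.205 FPKM in LacZ mice and 1.51 to 3.07 in the HDAC4 vector groups, whereas Fcrlb read 1.25 and 1.28 FPKM in LacZ saline and CFA mice and 0.844 to 1.08 in the HDAC4 vector groups, and was called lower in HDAC4 wt CFA mice (log2 difference -0.55). Fcer1a, the IgE-binding chain that also uses Fcer1g, had no row of a single gene and was not analysed here.

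The ligands of these receptors are antibodies, and transcripts of their constant parts were nearly absent in LacZ mice and abundant in the HDAC4 vector groups. The 13 immunoglobulin constant genes and J chain summed to 6.20 and 7.54 FPKM in LacZ saline and CFA mice, 1226.0 and 1453.1 with HDAC4 wt, and 691.2 and 1068.1 with HDAC4 3SA. Most of the LacZ sum was Ighm, at 5.22 and 5.26 FPKM. Igkc, the kappa light chain, read 0.117 and 0.268 FPKM in LacZ mice, 419.1 and 446.1 with HDAC4 wt, and 282.8 and 361.5 with HDAC4 3SA. The IgG heavy chains summed to 0.187 and 0.252 FPKM in LacZ mice, 32.7 and 164.7 with HDAC4 wt, and 48.3 and 20.2 with HDAC4 3SA. Most of this was Ighg3, which read 29.2 and 160.7 FPKM in HDAC4 wt saline and CFA mice and 45.3 and 15.8 with HDAC4 3SA. In the HDAC4 vector groups Ighg1 read 0.280 to 0.943 FPKM, Ighg2b 1.38 to 2.21 and Ighg2c 1.30 to 1.92. Binding of these classes to the receptors was not measured. Igha, at 268.8 and 435.1 FPKM with HDAC4 wt and 120.3 and 90.9 with HDAC4 3SA, exceeded the IgG sum in each HDAC4 vector group.

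Receptor and immunoglobulin transcripts were both higher with the HDAC4 vectors than with LacZ, and the difference with CFA depended on the immunoglobulin gene. In HDAC4 3SA mice the IgG sum was lower with CFA (20.2 against 48.3 FPKM), which Ighg3 carried, while the activating sum was higher (67.9 against 36.5 FPKM). Ighg2b and Ighg2c, of the IgG2 classes, were higher there with CFA, at 2.21 against 1.38 and 1.92 against 1.30 FPKM, as were Ighm, Iglc1 and Iglc2 and the sum of all 13 genes (1068.1 against 691.2 FPKM). In HDAC4 wt mice the IgG sum was higher with CFA (164.7 against 32.7 FPKM) and the activating sum differed less (57.5 against 47.4 FPKM). With the higher Fcgr1 row the activating sum was 130.2 with CFA against 65.0 FPKM in HDAC4 wt mice, and 103.6 against 83.9 FPKM in HDAC4 3SA mice. Of the immunoglobulin genes that reached the minimum, 3 of 12 were higher and 1 lower with CFA in HDAC4 wt mice, and 5 of 10 higher and 1 lower in HDAC4 3SA mice. Constant genes of 1 class are near-identical copies in part, so values of single genes within the IgG or lambda group are uncertain. Antibody protein was not measured.

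Several lists of cell type markers differed between the same groups as the Fc receptor genes. The 9 genes of macrophages in general, led by Ctss and Lyz2, summed to 108.2 and 131.3 FPKM in LacZ saline and CFA mice, 1042.3 and 1388.8 with HDAC4 wt, and 724.5 and 1568.5 with HDAC4 3SA, with 9 of 9 higher in each comparison with LacZ. The 8 microglial genes with a row, Csf1r among them, summed to 124.4 and 126.1, then 379.3 and 439.5, then 316.7 and 511.7 FPKM, with 5 of 8 higher in each saline and 7 of 8 in each CFA comparison. Border macrophage genes differed less: 4 and 2 of 7 were higher against LacZ in HDAC4 wt saline and CFA mice and 2 of 6 and 1 of 7 with HDAC4 3SA, with median log2 differences of 0.52, 0.12, 0.34 and 0.02. Their sum of 7.75 and 9.97 FPKM in LacZ saline and CFA mice and 20.5 to 37.6 in the HDAC4 vector groups was mostly Ms4a7 in the latter (11.3 to 27.9 FPKM). In bulk tissue, more cells of a type and more RNA per cell cannot be told apart. Tmem119 and P2ry12, which define microglia, read 7.97 and 11.1 FPKM in LacZ saline mice and 17.4 and 13.9 in HDAC4 wt saline mice, so both were present in the tissue as labelled.

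Set against these lists, most Fc receptor genes gave a picture that depended on the list. Fcgr4 was higher and Fcgrt lower relative to either list in each HDAC4 vector group. Per 100 FPKM of the microglial sum, Fcer1g read 5.95 and 7.74 in LacZ saline and CFA mice, 19.4 and 18.2 with HDAC4 wt, and 16.2 and 24.4 with HDAC4 3SA, and Fcgr2b read 0.988 and 1.34, then 3.63 and 3.72, then 2.64 and 3.80. Fcgr3 read 4.41 and 5.14, then 8.29 and 8.73, then 8.05 and 8.79. Fcgrt read 12.6 and 15.2, then 5.38 and 4.96, then 5.69 and 3.91. Fcgr1, Fcgr3, Fcgr4, Fcer1g and Fcgr2b were thus higher relative to microglial genes in each HDAC4 vector group than in either LacZ group.

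Relative to the macrophage sum, most of that difference was gone. Ctss and Lyz2 made up most of the sum, at 520.4 and 322.2 of 1042.3 FPKM in HDAC4 wt saline mice. The median log2 difference of the 9 genes from LacZ was 2.86 in these mice. Fcer1g (3.30) and Fcgr2b (3.38) lay above that median, and Fcgr1 (2.81) and Fcgr3 (2.50) below it. Per 100 FPKM of that list, Fcer1g read 6.84 and 7.43 in LacZ saline and CFA mice, 7.06 and 5.76 with HDAC4 wt, and 7.10 and 7.94 with HDAC4 3SA. Fcgr2b kept between 1.14 and 1.32 in all 6 groups. Fcgr3 was lower, with 5.07 and 4.94 in LacZ mice, 3.02 and 2.76 with HDAC4 wt and 3.52 and 2.87 with HDAC4 3SA. Fcgr1 went from 1.21 and 1.22 in LacZ mice to between 0.854 and 0.958, and Fcgr4 from 0.181 and 0.319 to between 0.512 and 0.592. Fcgr4 was the single member that was higher by over 0.5 on the log2 scale relative to this list in each of the 4 comparisons with LacZ. This rests on LacZ values of Fcgr4 of only 0.196 and 0.419 FPKM, under the minimum level, with no FPKM added. Fcrls, the microglial gene, had 2.34 and 1.95 in LacZ mice and 0.833 to 1.35 in the HDAC4 vector groups, and Fcgrt 14.5 and 14.6 in LacZ mice and 1.28 to 2.49 in the others.

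**Figure D5:**
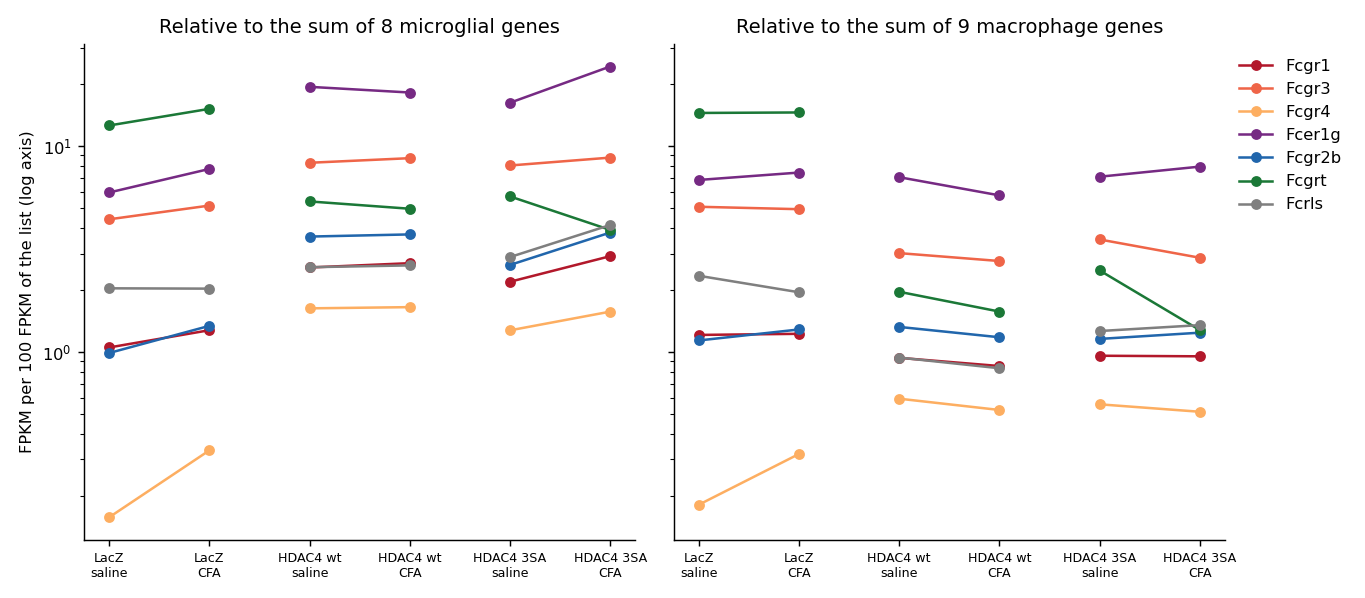
FPKM of each Fc receptor gene per 100 FPKM of the summed list in the same group, on a log axis, for 8 microglial genes (left) and 9 macrophage genes (right), with Fcgr1 from the strand-matched row. Fcer1g goes from 5.95 in LacZ saline to 19.4 in HDAC4 wt saline mice on the left and from 6.84 to 7.06 on the right.

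Other cell types that carry Fc receptors were read in the same way. Neutrophil genes summed to 11.3 FPKM in LacZ saline mice and 113.7 in LacZ CFA mice, led by S100a8 and S100a9, with 6 of the 6 that reached the minimum higher. In the same comparison no Fc receptor gene was called, and Fcgr4, a receptor of neutrophils among others, went from 0.196 to 0.419 FPKM. In the HDAC4 vector groups the neutrophil sum was lower with CFA, 41.7 against 29.1 FPKM for HDAC4 wt and 62.4 against 39.0 for HDAC4 3SA saline and CFA mice, while the Fc receptor genes were not. Monocyte genes summed to 1.11 and 4.18 FPKM in LacZ saline and CFA mice and 33.2 to 56.0 in the HDAC4 vector groups, most of it Ly6c2, which read 0.172 and 0.840 FPKM in LacZ mice and 28.0 to 48.5 in the others. B cell genes, a type in which Fcgr2b is the main Fc gamma receptor, summed to 1.32 and 3.20 FPKM and then 11.0 to 17.2. Mzb1 of plasma cells read 0.067 and 0.127 FPKM and then 15.5 to 23.1, and T cell genes summed to 0.592 and 0.955 FPKM and then 4.61 to 13.4. NK cell genes summed to 0.366 and 1.23 FPKM and then 1.89 to 4.43, led by Nkg7. Of the dendritic cell list, Itgax, which macrophages also use, read 0.323 and 0.411 FPKM and then 11.6 to 25.9, whereas Flt3 read 5.83 and 5.31 and then 3.34 to 4.59. Of the mast cell list, 1 of 5 genes had a row (Kit, at 6.41 to 10.4 FPKM), so that type could not be judged. The part of any of these cells in the Fc receptor levels was not tested.

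Genes of other resident cells were read as well. Endothelial genes, a cell type that uses Fcgrt, summed to 58.9 and 58.7 FPKM in LacZ saline and CFA mice and 69.8 to 81.8 FPKM in the HDAC4 vector groups. Leptomeningeal fibroblast genes summed to 130.9 and 174.7 FPKM in LacZ saline and CFA mice and 162.1 to 181.4 FPKM in the HDAC4 vector groups. Astrocyte genes summed to 700.5 and 701.1 FPKM in LacZ mice and 1149.5 to 1477.1 FPKM in the HDAC4 vector groups, a difference carried by Gfap and Aqp4. Of these 5 genes, 2 and 3 were called higher against LacZ in HDAC4 wt saline and CFA mice and 1 and 3 with HDAC4 3SA, while Slc1a3 (log2 differences of -0.50 to -0.29) and Gja1 (-0.23 to -0.11) lay slightly below LacZ. Neuronal genes summed to 2125.0 and 2079.5 FPKM in LacZ mice and 1330.9 to 1523.8 FPKM in the HDAC4 vector groups, a difference in the sum carried mainly by Snap25 and Nefl. Of the 5 neuronal genes, 3 and 2 were called lower against LacZ in HDAC4 wt saline and CFA mice, and 2 in each HDAC4 3SA comparison. Tubb3 was called in HDAC4 wt saline mice (log2 difference -0.52). Rbfox3 and Syt1 differed by at most 0.08 on the log2 scale in the saline comparisons. Their log2 differences were -0.39 and -0.21 in HDAC4 wt CFA mice and -0.34 and -0.45 in HDAC4 3SA CFA mice. Interferon response genes, a class to which Fcgr1 is often counted, summed to 25.5 and 40.4 FPKM in LacZ mice, 347.6 and 511.4 with HDAC4 wt, and 216.7 and 413.9 with HDAC4 3SA. With CFA, 8 of the 11 interferon genes that reached the minimum were higher in LacZ mice, 6 of 13 with HDAC4 wt and 13 of 13 with HDAC4 3SA. In LacZ mice, where 8 interferon genes were called with CFA, Fcgr1 had a log2 difference of 0.28.

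The patterns over the 6 groups were compared by Pearson's r of log2(FPKM + 0.1) among 14241 other genes of at least 1 FPKM. With 6 values, 4 of which are high, very many genes reach an r close to 1, and the values are a description only. Fcgr1, Fcgr3, Fcgr4, Fcer1g and Fcgr2b had r between 0.992 and 0.999 with one another, whereas Fcgrt had r between 0.656 and 0.772 with the other 6. The 5 genes most like Fcgr3 were St14, Tyrobp, Lyz2, Dock2 and Csf3r, those most like Fcgr1 were Ctsz, Cd53, St14, Cd37 and Ephx1, and those most like Fcgr2b were Fgd2, Mapkapk3, Fyb, Cyba and Ms4a4c. For Fcgr4 they were Clptm1l, Cd52, Cdkn1a, Hcar2 and Itgal, and for Fcer1g Sesn2, Gm44170, Commd3, Samsn1 and Pmaip1. Fcrls was most like Rnpep and BC005537, with r of 0.999 and 0.998. Fcgrt was most like R3hcc1, Chadl, Bmp5, Scarf2 and Dbp, with r from 0.988 to 0.997.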

How the data were processed

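RNAseq libraries (poly-A selected, strand-specific, single-end reads of 50 bp) were mapped by the authors with TopHat and Bowtie to GRCm38 with an Ensembl annotation, and quantified with Cufflinks and Cuffdiff. The authors deposited 3 gene tables, 1 per vector, with 34579 loci each and FPKM values for the saline and the CFA group, 1 pooled estimate per group. Fold changes, test statistics, p-values and q-values of the authors' own comparisons are also in these tables and were not used. Counts and depths are not in the tables, so the precision of each value is unknown. A design with tests over mice had been foreseen where values per mouse were given. As they were not, values were compared with no test.

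Loci were matched by identifier, and 386 whose places differed between tables were left out, as were names of several genes. Differences were taken on log2(FPKM + 0.1) over genes whose 2 groups averaged 0.5 FPKM or more, with Python 3.11.15 and pandas 2.3.3, and called at 0.5. The code was tested on simulated data. Named genes are the 7 members, up to 5 genes per pathway list (the 3 of highest mean and the 2 of largest difference with CFA), 2 of highest mean per marker list, B2m, Hdac4, and the 5 most alike per member. Further genes of the lists (Tmem119, P2ry12, Ighm, Ighg1, Ighg2b, Ighg2c, Iglc2, Dok1, Rbfox3, Syt1, Tubb3, Slc1a3, Gja1, C3, Itgam) and the strand-matched Fcgr1 row were chosen after their values were seen. Lists covered 25 groups with 177 entries, 159 of them with a row. The members and lists were chosen with earlier results of these data known. Alternatives changed the added FPKM, the minimum level, the threshold, the centring, the rows summed, and the genes of each ratio. Single results of some genes that these rules name are not reported here.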

Additional observations from a re-analysis of the deposited data

Results flagged for a closer look

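The higher Fcgr1 row moved in opposite directions with CFA in different vectors: its log2 difference was -6.48 in LacZ mice, where the CFA value is listed at 0, and 1.62 in HDAC4 wt mice. With 1 value per group this difference was not tested. The strand-matched Fcgr1 row had 0.28 in both.

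The rows that the selection did not take also held signal in the HDAC4 vector groups. The strand-matched Fcgr1 row reached 14.9 FPKM there and at most 1.61 FPKM in LacZ mice. The second Fcgr2b row, whose identifier lies among plus-strand genes although the gene is on the minus strand, reached 0.584 FPKM against at most 0.0644 in LacZ mice. A second Fcrls row, at chr3:87248095-87248945, reached 0.915 FPKM against at most 0.0793 in LacZ mice.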

How the results depend on the processing

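No paired analysis was possible because the tables hold 1 pooled value per group, and for the same reason no mouse could be left out. Values here use the higher Fcgr1 row unless stated. Of 432 alternative values of single genes, 422 kept their side of the threshold; 1 of these, Fcgr1 with CFA in HDAC4 3SA mice, changed sign below it, from -0.10 to 0.10 with all rows summed. The strand-matched Fcgr1 row, chosen after seeing the data, turned the log2 difference of Fcgr1 with CFA in LacZ mice from -6.48 to 0.28, took the count of genes higher with CFA in HDAC4 wt mice from 1 to 0 (at a log2 threshold of 0.5 or 1), and gave activating to inhibitory ratios of 5.68 in LacZ saline, 3.51 in HDAC4 wt CFA, 4.35 in HDAC4 3SA saline and 3.49 in HDAC4 3SA CFA mice. Without a minimum level, 1 gene (Fcgr4) was higher with CFA in LacZ mice in place of 0, against 6.04% of all genes in place of 3.58%. A log2 threshold of 1 left 3 of 5 genes higher with CFA in HDAC4 3SA mice, and the median of all 7 genes, 0.98, was then under it; 2.67% of all genes passed. Activating to inhibitory ratios without Fcgr1 were 4.62 in LacZ saline, 2.73 and 2.79 in HDAC4 wt saline and CFA, and 3.52 and 2.73 in HDAC4 3SA saline and CFA mice. Without Fcgr3 they were 7.36 in LacZ saline, 0.248 in LacZ CFA (Fcgr4 alone, as that Fcgr1 row is listed at 0 there), 2.43 in HDAC4 wt saline and 3.02 in HDAC4 3SA CFA mice. With the strand-matched row and no Fcgr3 they were 1.22, 1.20, 1.16, 1.17, 1.31 and 1.18 over the 6 groups.

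Relative to the microglial sum, the median log2 difference of the 7 genes from LacZ was 0.89 and 1.22 in HDAC4 wt saline and CFA mice and 1.26 and 1.43 in HDAC4 3SA mice. Relative to the macrophage sum it was -0.77, -0.38, -0.14 and -0.13, since that sum itself differed more than the microglial sum. With the strand-matched Fcgr1 row the medians were 1.20, 1.01, 0.97 and 1.12 relative to microglia and -0.46, -0.59, -0.42 and -0.44 relative to macrophages. With the geometric mean of the microglial genes, the median with CFA in HDAC4 3SA mice was 0.60 in place of 0.28. The unknown depth limits every value, those under 0.5 FPKM the most.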
